A study of Mus musculus with 9 samples.

Results

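The voltage-gated sodium, calcium and HCN channel genes of the mouse retina are the 34 genes described here, of 25239 gene names in the deposited tables. They were chosen by name, with no measured value in the rule. They are the sodium channel pore (alpha) subunits Scn1a to Scn11a as far as the tables list them, the sodium channel beta subunits, the calcium channel pore (alpha1) subunits of the Cacna1 family without Cacna1f, the alpha2delta subunits Cacna2d1 to Cacna2d3, the beta subunits Cacnb1 to Cacnb4, and the HCN pacemaker channels. By class there were 10 sodium alpha, 4 sodium beta, 9 calcium alpha1, 3 alpha2delta, 4 calcium beta and 4 HCN genes. Each of them filled 1 line of every table, at the same position in all tables.

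RNA-Seq was done on whole retinas of mice at P42, with both retinas of 1 mouse in each library. The genotypes, 3 libraries each, were wild type (+/+), heterozygous Rbpms-CreERT2/+ (Cre/+) and homozygous Rbpms-CreERT2/CreERT2 (Cre/Cre). The mice came from the same litters on a C57BL/6J background. In the knock-in allele, a P2A-CreERT2 cassette follows the last codon of Rbpms, which encodes an RNA-binding protein found in retinal ganglion cells (RGCs), so that the endogenous Rbpms locus drives an inducible Cre recombinase. The line goes back to targeted zygotes, no tamoxifen treatment is stated for these retinas, and the labels give no sex. A whole retina holds photoreceptors, bipolar, horizontal and amacrine cells, RGCs and glia, so a lower level cannot tell fewer cells of a type from less RNA per cell.

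Sodium channels open when a membrane is depolarized and carry the rising phase of the action potential, which in the retina is fired by RGCs and some amacrine and bipolar cells. Voltage-gated calcium channels admit the calcium that triggers transmitter release, and their alpha2delta and beta subunits set how many pore subunits reach the membrane and how they gate. HCN channels open on hyperpolarization, are tuned by cyclic AMP, and shape the light responses of rods and cones.

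Levels are given in TPM, a share of all transcripts that is scaled to the length of a gene and to the library. Depth was 4.05 to 4.65 aligned gigabases per library. Genotypes were compared with limma on log2(TPM + 1), over the 15198 genes with a mean of at least 1 TPM, and a gene was called at an adjusted p of at most 0.05 (Benjamini-Hochberg). Fold changes on this scale understate those of genes with a low level. Rbpms itself measured 43.2, 38.4 and 43.4 TPM in wild-type retinas, 31.3, 32.2 and 33.1 in heterozygous and 19.7, 19.1 and 24.2 in homozygous ones, a log2 difference between Cre/Cre and wild type of -0.96 (adjusted p = 0.000581, limma). The paper, which called genes at a fold above 2, reported no significant change of Rbpms RNA and similar RBPMS staining across genotypes. In Cre/Cre replicate 1, the ribosomal RNA precursor Rn45s took 9.21% of all TPM, against 0.0827% to 0.336% in the other 8, and the summed level of the channel genes was 999 TPM, against 1117 to 1203 TPM elsewhere. Fold changes of Cre/Cre are therefore also given without that library where it matters. Xist was at most 3.16 TPM in Cre/+ replicate 3, Cre/Cre replicate 1 and Cre/Cre replicate 3 and 516 to 585 TPM in the other 6. The summed level of lens genes reached 979.6 TPM in 1 library, Cre/Cre replicate 2, with 14.8 to 217.5 TPM in the rest. Each library is 1 mouse, so p-values measure the spread between these mice.

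Of the 34 channel genes, 32 reached the mean of 1 TPM. Scn10a was listed at 0 in all 9 libraries and Scn11a had 0 to 0.461 TPM. Both encode tetrodotoxin-resistant channels of sensory neurons of the dorsal root ganglia, and neither was tested. Over the other 32, the mean level ran from 2.40 TPM for Scn9a to 139 TPM for Cacnb2, with a median of 25.8 TPM, where the median of all genes tested was 26.5 TPM. Their coefficient of variation over the 9 libraries had a median of 10.03%, against 10.01% over all genes tested.

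**Figure D1:**
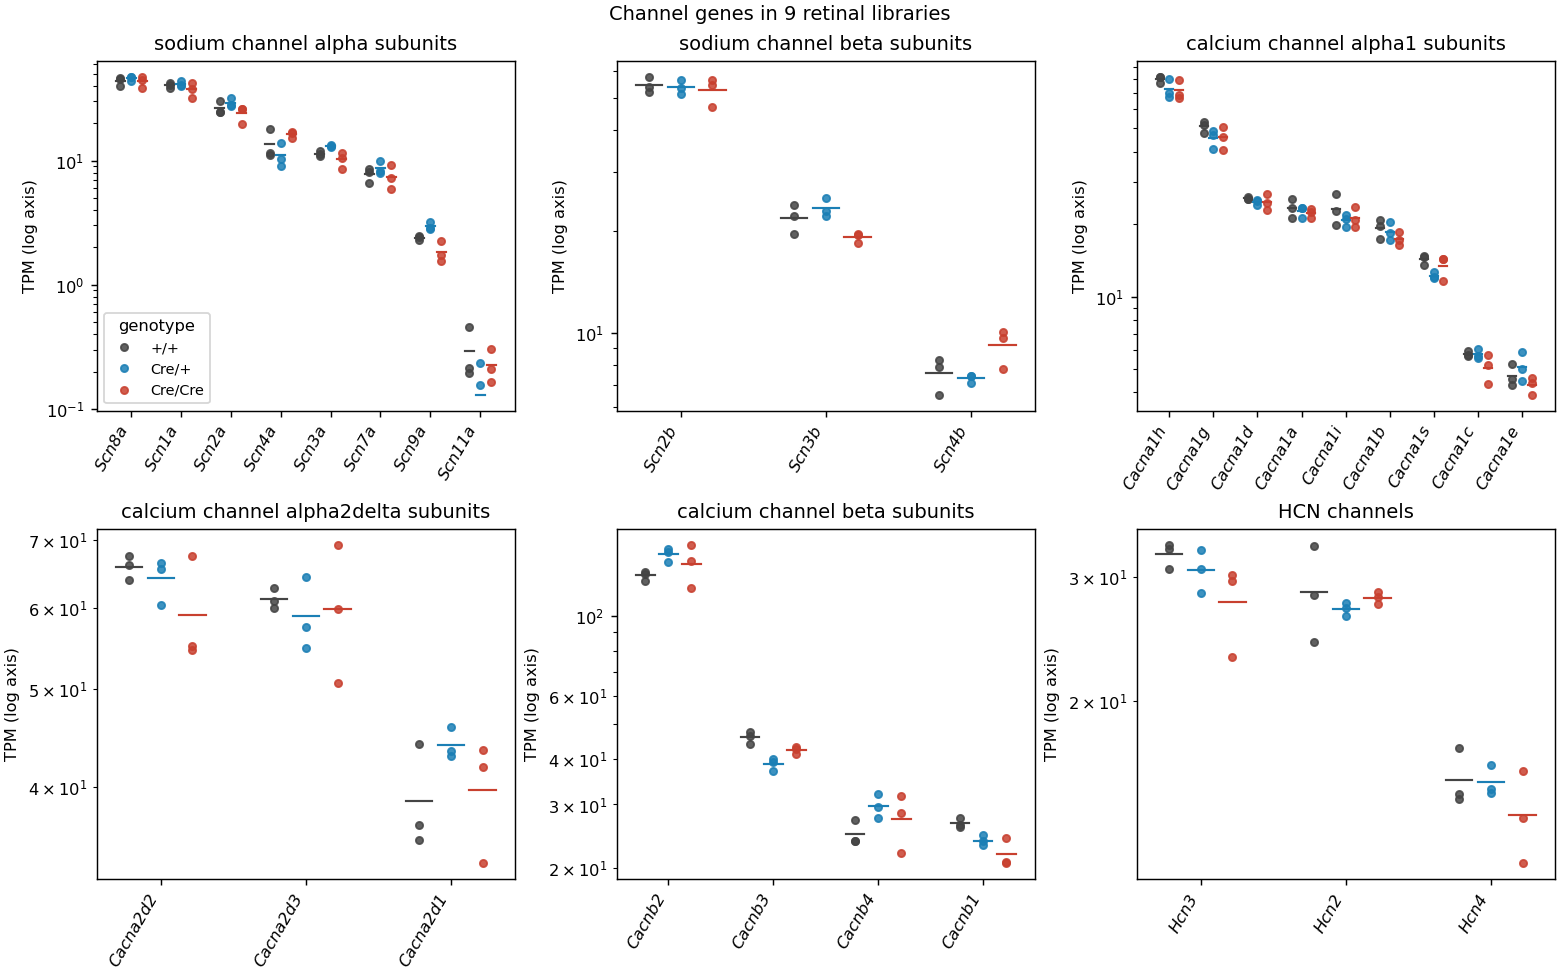
TPM of the channel genes in each of the 9 libraries (points, log axis) by subunit class, with a short bar at the mean of each genotype. Scn10a and 1 library of Scn11a are at 0 and are not drawn. For many of the genes shown at least 1 pair of genotypes does not overlap, among them Scn9a, Scn3a, Cacnb1, Cacnb2, Cacnb3 and Cacnb4.

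Among the sodium channel pore subunits, Scn8a, Scn1a and Scn2a, the main subunits of mature central neurons, had the highest TPM. Scn8a, whose channel sits at nodes of Ranvier and axon initial segments, had 46.2, 40.1 and 44.9 TPM in wild-type retinas, 46.9, 44.0 and 46.8 in heterozygous and 38.3, 44.5 and 47.0 in homozygous ones. Scn1a had 42.4, 40.4 and 38.0 TPM in wild-type retinas, 40.7, 40.0 and 43.8 in heterozygous and 31.7, 37.8 and 42.4 in homozygous ones. Scn2a, which is found in unmyelinated axons, had 30.3, 24.7 and 24.8 TPM in wild-type retinas, 27.9, 27.5 and 31.7 in heterozygous and 19.8, 25.9 and 26.1 in homozygous ones. Scn8a exceeded Scn1a in 8 of 9 libraries at 1.12 times its mean, and their ranges overlapped. Next to Scn2a came Scn4a at 13.5 ± 3.81 TPM for wild type, 11.1 ± 2.50 for heterozygotes and 16.3 ± 1.06 for homozygotes (SD, n = 3), and Scn3a, the subunit of immature neurons, at 11.4 ± 0.476 TPM for wild type, 13.1 ± 0.328 for heterozygotes and 10.2 ± 1.54 for homozygotes (SD, n = 3). Scn7a, an atypical sodium-sensing channel of glia, had 7.73, 8.72 and 7.41 TPM on average in +/+, Cre/+ and Cre/Cre. Lower still was the nociceptor subunit Scn9a with 2.39, 2.96 and 1.85 TPM. The summed level of the 10 alpha genes was 149 ± 7.30 TPM for wild type, 155 ± 7.07 for heterozygotes and 144 ± 17.5 for homozygotes (SD, n = 3). Scn9a overlaps Gm13629, on the opposite strand, at a mean of 10.2 TPM. The beta genes encode single-pass membrane proteins that modulate gating and adhesion. Scn2b had 53.8, 51.8 and 57.6 TPM in wild-type retinas, 51.1, 56.6 and 53.3 in heterozygous and 46.8, 56.5 and 54.3 in homozygous ones, with all genotypes overlapping. Scn2b, Scn3b and Scn4b stood in this order in every library, without overlap of neighbours.

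Since the sodium channel genes are paralogs that can share reads, the identical stretches of their coding sequences were measured. Of 169 pairs of coding sequences within the families, 35 shared at least one run of 31 bases, and 2 pairs shared an unbroken run longer than the 150 bases of a read. These pairs were Scn1a with Scn2a and Scn3a with Scn9a, and a read that lies inside such a run cannot be placed between the genes of the pair. The largest share of 31-base runs in common was 12.9% of those of Scn3a, with Scn2a. The longest identical run was 68 bases among the calcium alpha1 genes (Cacna1g and Cacna1i), 33 bases among the HCN genes (Hcn3 and Hcn2) and 24 bases among the calcium beta genes (Cacnb2 and Cacnb1). Scn3a also shared a run of 143 bases with Scn1a and with Scn2a, which a read shortened by trimming can lie inside. Reads from the runs of the sodium channel genes can therefore be split among Scn1a, Scn2a, Scn3a and Scn9a, and the values of these genes are uncertain to that extent.

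Among the calcium channel pore subunits, Cacna1h and Cacna1g, T-type genes whose channels open at low voltage, had the highest levels in the group described here. Cacna1h had 81.5, 77.3 and 81.8 TPM in wild-type retinas, 70.1, 67.8 and 79.9 in heterozygous and 69.0, 67.1 and 79.6 in homozygous ones. Cacna1g had 51.9, 48.0 and 53.3 TPM in wild-type retinas, 40.9, 47.1 and 48.7 in heterozygous and 46.1, 40.6 and 50.9 in homozygous ones. Cacna1d, an L-type subunit of neurons and hair cells, had 25.6, 25.8 and 25.4 TPM in wild-type retinas, 24.9, 24.1 and 25.2 in heterozygous and 23.0, 24.6 and 26.6 in homozygous ones. Cacna1h stood 1.58 times above Cacna1g and Cacna1g 1.90 times above Cacna1d, in 9 of 9 libraries and without overlap. From Cacna1d downwards the neighbours Cacna1a (P/Q-type, presynaptic), Cacna1i (T-type) and Cacna1b (N-type, presynaptic) had overlapping ranges, with means over all libraries of 22.8, 21.7 and 18.4 TPM. Cacna1c, the cardiac and neuronal L-type subunit, and Cacna1e, the R-type subunit, were the lowest at 4.33 to 6.09 and 3.91 to 5.89 TPM and overlapped too. The 9 genes summed to 247 ± 12.8 TPM for wild type, 228 ± 14.0 for heterozygotes and 226 ± 17.4 for homozygotes (SD, n = 3).

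Cacna1s and Scn4a encode the calcium and sodium pore subunits of skeletal muscle. Cacna1s had 11.6 to 14.8 TPM and Scn4a 9.03 to 17.9 TPM over the 9 libraries. Of 10 skeletal muscle markers, 5 had a mean of at least 1 TPM. Among these was the fast myosin light chain gene Mylpf with 6.59 to 14.4 TPM. The myosin heavy chain Myh1 was at 0 in all 9 libraries and Myh2, Myh4, Tnnt3 and Tnnc2 did not pass 0.453 TPM in any. The sum of the list was 15.2 to 23.8 TPM, and the part of muscle RNA in the values of Cacna1s and Scn4a was not tested.

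Of the alpha2delta genes, Cacna2d2 had 66.1, 63.9 and 67.5 TPM in wild-type retinas, 60.5, 65.7 and 66.6 in heterozygous and 55.1, 54.6 and 67.6 in homozygous ones. Cacna2d3 had 60.03, 62.8 and 61.0 TPM in wild-type retinas, 64.4, 57.5 and 54.8 in heterozygous and 50.6, 69.3 and 59.9 in homozygous ones, and its range overlapped that of Cacna2d2. The gene overlaps Lrtm1, which lies on the opposite strand and had a mean of 136 TPM. Cacna2d1, a gabapentin-binding subunit, had 44.1, 36.7 and 35.5 TPM in wild-type retinas, 42.9, 43.4 and 45.8 in heterozygous and 33.7, 41.9 and 43.5 in homozygous ones, below Cacna2d3 in every library. All 3 encode extracellular subunits that carry the pore to the membrane, and they summed to 166 ± 3.82 TPM for wild type, 167 ± 0.609 for heterozygotes and 159 ± 16.9 for homozygotes (SD, n = 3).

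The calcium beta subunits bind the pore from the cytoplasm, and the protein of Cacnb2 is the partner of the photoreceptor channel. Cacnb2 had 132, 125 and 131 TPM in wild-type retinas, 141, 151 and 153 in heterozygous and 119, 142 and 157 in homozygous ones. Cacnb3 had 44.0, 47.5 and 46.5 TPM in wild-type retinas, 40.1, 37.2 and 39.5 in heterozygous and 43.3, 42.8 and 41.3 in homozygous ones. Cacnb4 had 27.2, 23.7 and 23.8 TPM in wild-type retinas, 27.5, 29.4 and 32.1 in heterozygous and 22.02, 28.3 and 31.6 in homozygous ones. Cacnb1, the skeletal muscle and neuronal form, had 26.0, 27.5 and 26.3 TPM in wild-type retinas, 23.7, 23.1 and 24.6 in heterozygous and 20.8, 20.7 and 24.3 in homozygous ones. On the TPM scale Cacnb2 stood 3.27 times above Cacnb3. The tables also hold the mean coverage per base, and for Cacnb2 these measures went apart. For most genes the ratio of coverage to FPKM (fragments scaled to length and library) was 1 value per library, and for 19 of the 33 channel genes with a ratio it was within 1% of that value in all libraries. For Cacnb2 it was 0.0710 to 0.0714 of the common value, for Cacnb3 0.359 to 0.383, and for Scn8a and Cacna1c between 0.541 and 0.553. Converted from coverage, the mean level of Cacnb2 was 9.89 TPM, the lowest of its class, behind Cacnb4 with 25.1, Cacnb1 with 20.7 and Cacnb3 with 15.8 TPM. Scn8a came to 24.1 TPM, below Scn1a with 39.6 TPM, and Cacna1c, with 3.04 TPM, below Cacna1e. The GENCODE annotation of Cacnb2 holds 16 transcripts, with 13228 bases of exons in all, and its coding transcripts run from 430 to 3945 bases. Which measure of the level of these genes is nearer to their RNA was not tested. In Cacnb2 the ratio was nearly the same in all libraries.

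**Figure D2:**
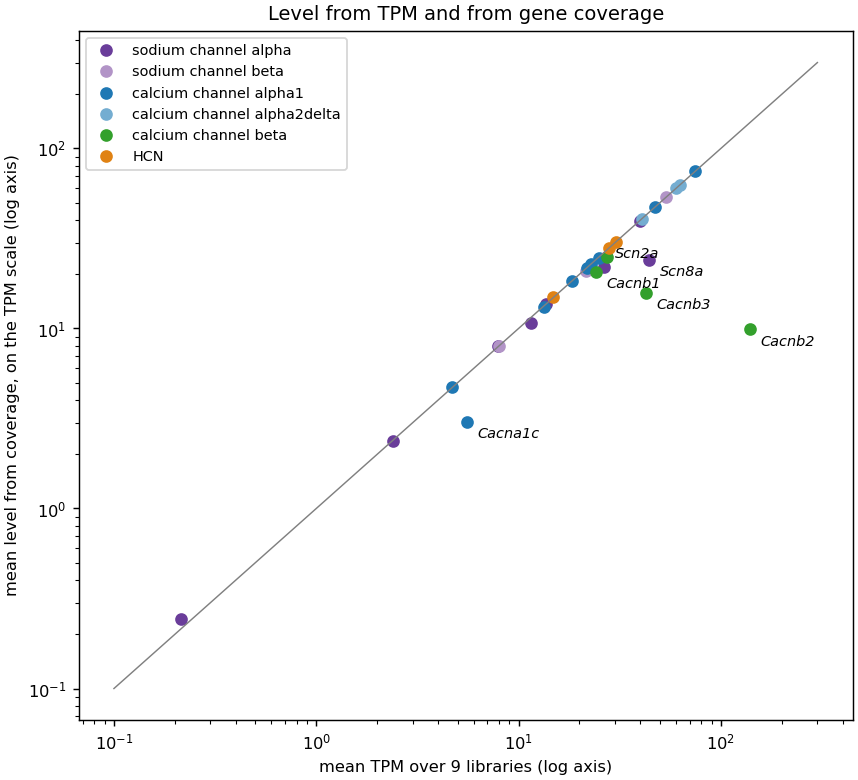
Mean level over 9 libraries from TPM (x) and from gene coverage on the same scale (y), both on log axes, with the line of equal values. Most of the 30 channel genes drawn lie on the line, while Cacnb2 moves from 139 to 9.89 TPM, and Cacnb3, Scn8a and Cacna1c also lie below it.

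Of the HCN genes, Hcn2, Hcn3 and Hcn4 are described here. Hcn3 had 30.8, 33.3 and 32.9 TPM in wild-type retinas, 28.5, 32.9 and 30.9 in heterozygous and 23.1, 29.6 and 30.2 in homozygous ones. Hcn2 had 24.3, 28.3 and 33.2 TPM in wild-type retinas, 27.1, 27.6 and 26.5 in heterozygous and 27.5, 28.1 and 28.6 in homozygous ones, and the ranges of Hcn3 and Hcn2 overlapped. Hcn4, the subunit of the cardiac pacemaker, was below Hcn2 in all 9 libraries, with 11.8 to 17.1 TPM.

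Against +/+, 0 of the 32 channel genes were called in Cre/+ retinas and 0 in Cre/Cre retinas (limma), where 0.00658% of all genes tested were called in each. The same 0 of 32 held for Cre/Cre against Cre/+, where 0.0132% of all genes were called, and for a slope over 0, 1 and 2 knock-in copies, where 0.00658% were. The smallest adjusted p was 0.377 in Cre/+ (Cacnb3), 0.606 in Cre/Cre (Cacnb1), 0.707 between the knock-in genotypes (Scn4a) and 0.669 for the trend (Cacnb1). All comparisons with +/+ share the 3 +/+ libraries. The 95% intervals of all 32 genes lay inside a 2-fold change of TPM + 1 in all 3 contrasts. In TPM itself the intervals of low genes such as Scn9a reach further. On the scale of TPM + 1 the intervals lay inside 1.5-fold for 30 genes in Cre/+, 30 in Cre/Cre and 29 between the knock-in genotypes. Scn4a and Scn9a were the exceptions each time, and Scn3a in the last. For Scn4a in Cre/Cre the interval was -0.10 to 0.66 on the log2 scale, and for Scn9a it was -0.64 to 0.12.

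**Figure D3:**
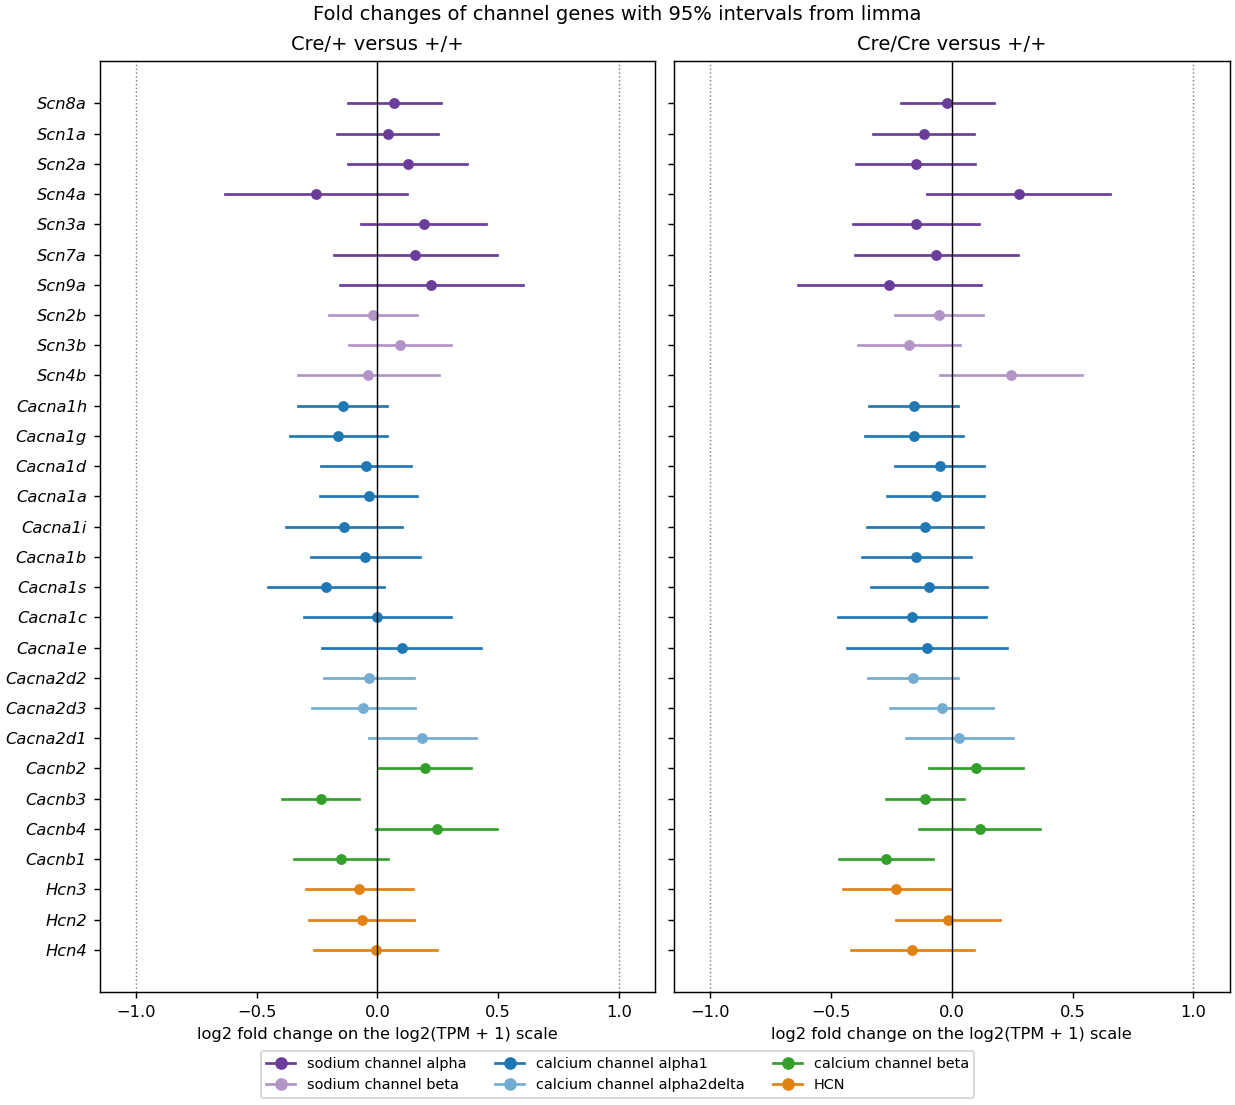
Log2 fold change of 29 of the tested channel genes (points) with the 95% interval from limma (bars), in Cre/+ and in Cre/Cre against +/+, coloured by subunit class. All intervals lie between the dotted lines at a 2-fold change, and in Cre/Cre 24 of 29 points lie left of 0.

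At an unadjusted p under 0.05, 3 of 32 genes differed in Cre/+, where 10.7% of all genes did. Of these, 2 were higher (4.9% of all genes) and 1 lower (5.82%). In Cre/Cre 3 differed, all lower, where 6.97% of all genes differed and 5.39% were lower. Between Cre/Cre and Cre/+ there were 5, against 6.58% of all genes, with 1 higher (2.38%) and 4 lower (4.2%). For the trend there were 3, all lower, against 6.24% of all genes, 1.42% higher and 4.82% lower. The median log2 fold change was -0.04 in Cre/+ with 20 of 32 below 0, against a median of 0.00 and 49.6% below 0 over all genes. In Cre/Cre it was -0.11 with 26 of 32 below 0, against -0.02 and 57.7%. Between Cre/Cre and Cre/+ it was -0.09 with 23 of 32 below 0, against -0.03 and 59.2%. Without Cre/Cre replicate 1 the median in Cre/Cre was -0.03, with 20 of 32 below 0, and 6 genes had an unadjusted p under 0.05, 4 of them higher, among them Cacnb2, Cacnb4 and Scn4b. In that setting the median over all genes was 0.02 and 9.47% of all genes had an unadjusted p under 0.05. The median in Cre/+ was 0.02 without +/+ replicate 3 and 0.01 without Cre/+ replicate 1, so its sign turned with either library left out.

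By class, 8 of 9 calcium alpha1 genes were below 0 in Cre/+ and 9 of 9 in Cre/Cre, where 49.6% and 57.7% of all genes were. The medians were -0.05 and -0.11, and 0 of the 9 reached an unadjusted p under 0.05. After the GC correction described below, these genes ran from -0.15 (Cacna1s) to 0.09 (Cacna1a) in Cre/+. In Cre/Cre, so corrected, they ran from -0.14 (Cacna1c) to 0.02 (Cacna1a). Class counts without Cre/Cre replicate 1 are not given here. The sodium alpha genes were above 0 in Cre/+ in 6 of 8 cases, with a median of 0.10, and below 0 in Cre/Cre in 7 of 8, with a median of -0.09. The 3 libraries of each genotype did not overlap for 10 of 32 genes in Cre/+, where this held for 22.2% of all genes. There were 5 higher (11.9% of all genes) and 5 lower (10.3%). In Cre/Cre it held for 4, all lower, against 10.8% of all genes, 2.7% higher and 8.05% lower. For 3 against 3 libraries a two-sided exact permutation test cannot go below 0.1.

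In Cre/+, Cacnb3 and Cacnb2 were among the genes with an unadjusted p under 0.05. Cacnb3 was lower in all 3 Cre/+ libraries than in any +/+ library, with a log2 fold change of -0.24 (standard error 0.08, adjusted p = 0.377, limma). Cacnb2 was higher without overlap, at 0.20 (standard error 0.09, adjusted p = 0.460, limma). From coverage per aligned gigabase it was 0.13, where the 1 added before the log weighs more because the values are smaller. Converted from coverage to the TPM scale, the means of Cacnb2 were 9.19 in +/+ and 10.6 in Cre/+. In Cre/Cre they had log2 fold changes of -0.11 and 0.10, with adjusted p of 0.838 and 0.891 (limma), and Cacnb2 was at 0.21 without Cre/Cre replicate 1. Cacnb4 was close to them in Cre/+ with 0.24 (adjusted p = 0.467, limma), its lowest Cre/+ library just above the highest +/+ library.

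In Cre/Cre, Cacnb1 and Hcn3 were among the genes with an unadjusted p under 0.05, there and in the trend. Cacnb1 had its 3 lowest values among +/+ and Cre/Cre libraries in Cre/Cre, with a log2 difference of -0.27 (standard error 0.09, adjusted p = 0.606, limma) and -0.24 without Cre/Cre replicate 1. Hcn3 was at -0.23 (standard error 0.10, adjusted p = 0.704, limma), and at -0.11 without that library, whose 23.1 TPM was the lowest value of the gene. Cacnb1, Cacnb3 and Scn9a were the genes whose libraries did not overlap with +/+ in either knock-in genotype. Cacnb1 and Cacnb3 were lower in both, and Scn9a was higher in Cre/+ and lower in Cre/Cre. Of all genes, 22.2% had no overlap with +/+ in Cre/+ and 10.8% in Cre/Cre. The share without overlap in both was not computed, and both contrasts use the same +/+ libraries.

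Between the knock-in genotypes, the libraries did not overlap for 7 of 32 genes, against 12% of all genes, with 3 higher (4.76%) and 4 lower (7.23%). The 5 genes with an unadjusted p under 0.05 were all sodium channel subunits, of which 8 alpha and 4 beta genes were tested. Among them Scn2a, Scn3a and Scn9a can share reads, so their values are not fully separate observations. Scn4a had 11.1, 11.6 and 17.9 TPM in wild-type retinas, 13.9, 9.03 and 10.4 in heterozygous and 15.0, 17.0 and 16.7 in homozygous ones. Its +/+ replicate 3 was the highest of all 9, and the log2 difference of Cre/Cre from Cre/+ was 0.53 (standard error 0.18, adjusted p = 0.707, limma). Scn9a had 2.41, 2.45 and 2.30 TPM in wild-type retinas, 3.19, 2.82 and 2.87 in heterozygous and 1.73, 2.25 and 1.56 in homozygous ones. Every Cre/Cre library was below every +/+ library and every Cre/+ library above them, with a log2 difference between the knock-in genotypes of -0.48 (standard error 0.18, adjusted p = 0.740, limma). Scn3a, which shares a long run with Scn9a, had 11.9, 11.3 and 10.9 TPM in wild-type retinas, 12.8, 13.2 and 13.4 in heterozygous and 8.54, 10.6 and 11.6 in homozygous ones. It followed the same order in Cre/+ but overlapped +/+ in Cre/Cre, and the difference was -0.34 (adjusted p = 0.739, limma). Scn3b, a beta subunit of central and sensory neurons, had 24.0, 22.2 and 19.6 TPM in wild-type retinas, 22.2, 22.9 and 25.1 in heterozygous and 18.5, 19.7 and 19.5 in homozygous ones. The difference was -0.27 for Scn3b and -0.28 for Scn2a (adjusted p = 0.740 for both, limma). Without Cre/Cre replicate 1 the differences were 0.58 for Scn4a, -0.46 for Scn9a, -0.23 for Scn3a, -0.25 for Scn3b and -0.15 for Scn2a, the last moving most. From FPKM or from coverage in place of TPM, the difference of Scn9a was -0.28 in both. There the 1 added before the log weighs more, because these values are smaller than TPM. Over the alternatives other than single libraries left out, it ran from -0.67 to -0.28. The summed level of 13 RGC markers, among them the targeted gene Rbpms, Thy1 and the neurofilament genes, was 1908 to 1994 TPM in +/+ and 1802 to 1868 in Cre/+. In Cre/Cre it was 1393, 1673 and 1673 TPM. In Cre/Cre replicate 1 the summed markers of photoreceptors, bipolar cells, amacrine cells and Mueller glia were also the lowest of all 9 libraries, while those of blood were the highest. The part of the RGC list in the sodium channel values was not tested.

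The sign of the channel genes in Cre/+ went with the base composition of their transcripts. Over the 32 genes the Spearman correlation of the log2 fold change with the GC content of the longest coding transcript was -0.83 in Cre/+, -0.28 in Cre/Cre and 0.58 between the knock-in genotypes. Over the 13629 genes tested with a GC value it was -0.63, -0.36 and 0.39. The part of GC content in the fold changes was not tested beyond the correction given next. These correlations run across genes of the same libraries, which are not independent replicates. Of the 13 channel genes with less than 50% GC, 11 were above 0 in Cre/+ with a median of 0.16, and of the 19 with 50% or more, 18 were below 0 with a median of -0.07. Over all genes the medians were 0.09 and -0.08. Cacnb4, at 40.5% GC, was among the highest values in Cre/+, and Cacnb3, at 61.3% GC, was next to lowest after Scn4a. Libraries of the same genotype differed too. The correlation of a library's deviations from the mean of all 9 with GC was -0.06, 0.37 and 0.86 over the channel genes in the +/+ libraries, -0.72, -0.52 and -0.62 in Cre/+, and 0.67, -0.28 and -0.01 in Cre/Cre.

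**Figure D4:**
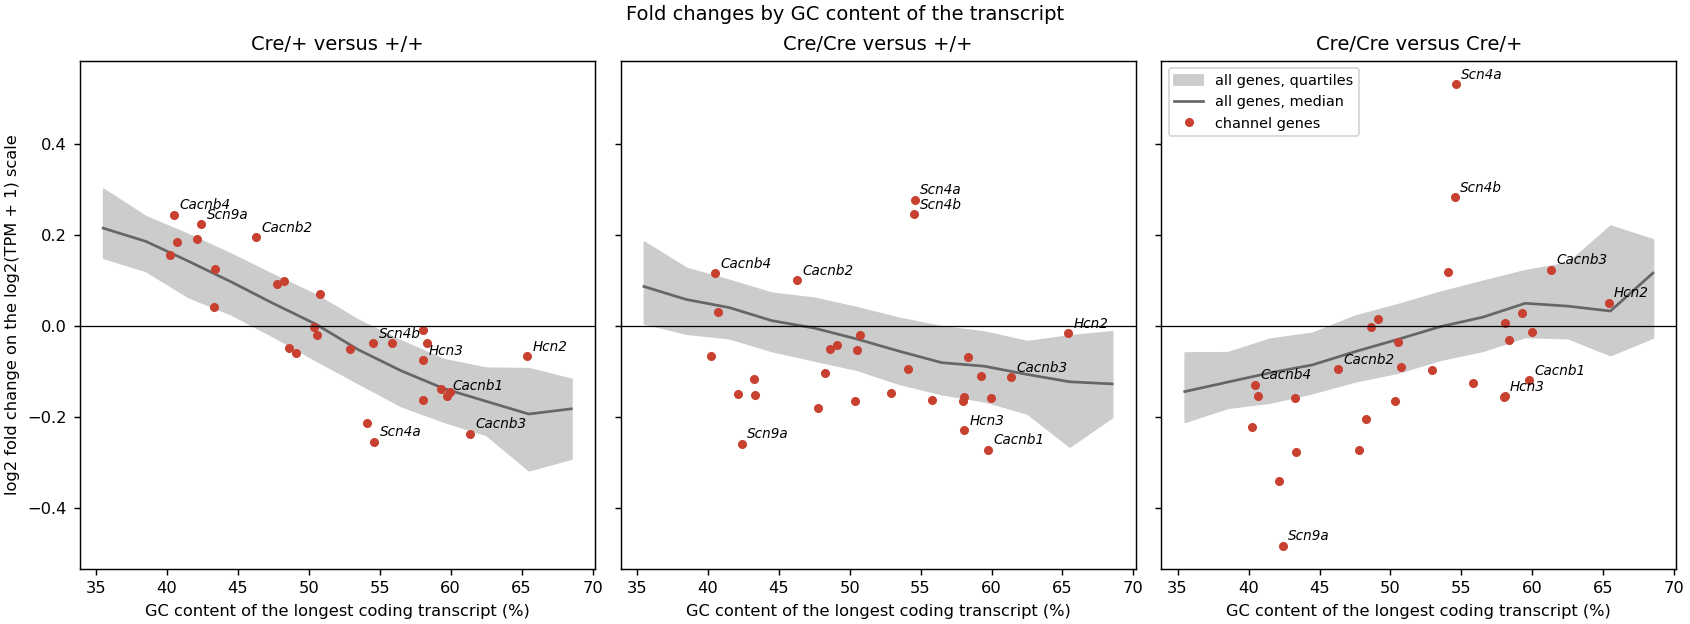
Log2 fold change in the 3 contrasts against the GC content of each gene's longest coding transcript (%), for 29 channel genes (red points) and for all genes tested (grey line, median per bin of GC content, with the quartiles shaded). In Cre/+ the channel genes fall with GC content, as the line of all genes does, while Scn4a and Scn4b in Cre/Cre, and Scn4a and Scn9a between the knock-in genotypes, lie far from it.

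A correction that removed a smooth curve on GC from each library was added after seeing the data. In Cre/+ it moved Cacnb3 from -0.24 to -0.08 and Cacnb4 from 0.24 to 0.09. Cacnb2 went from 0.20 to 0.13. In Cre/Cre it moved Hcn3 from -0.23 to -0.14 and Cacnb1 from -0.27 to -0.17. The differences between the knock-in genotypes moved by less than 1.5 times in each sodium channel gene named there for its unadjusted p. They came to 0.52 for Scn4a, -0.38 for Scn9a, -0.24 for Scn3a and -0.22 for Scn3b, and Scn2a went from -0.275 to -0.184. Corrected, 1 channel gene in Cre/+ (Cacnb2), 2 in Cre/Cre (Cacnb1 and Scn4b) and 7 between the knock-in genotypes had an unadjusted p under 0.05, where 6.58%, 7.16% and 7.76% of all genes did, and 0 were called in limma. Scn4b, a sodium beta subunit linked to resurgent current, had 7.57 ± 0.919 TPM for wild type, 7.32 ± 0.192 for heterozygotes and 9.17 ± 1.2005 for homozygotes (SD, n = 3), and its corrected log2 fold change in Cre/Cre was 0.31.

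The calcium beta genes, which went both ways in Cre/+, are shown by the promoter at, or for Cacnb4 nearest to, their deposited start. Each stretch runs from 250 bases before to 50 bases after the start in RefSeq (GRCm38.p6), 5′ to 3′ on the gene's strand, with matches to GGGCGG, the core of the GC box, or to its reverse complement in capitals. The positions are chr11:98022578-98022877 for Cacnb1 (minus strand), chr2:14604056-14604355 for Cacnb2 (plus), chr15:98632078-98632377 for Cacnb3 (plus) and chr2:52676094-52676393 for Cacnb4 (minus). The start of Cacnb4 and its whole window lie inside the deposited gene (chr2:52428320-52676609), so its matches may lie in transcribed bases. The other 3 starts equal the deposited ones.
Cacnb1: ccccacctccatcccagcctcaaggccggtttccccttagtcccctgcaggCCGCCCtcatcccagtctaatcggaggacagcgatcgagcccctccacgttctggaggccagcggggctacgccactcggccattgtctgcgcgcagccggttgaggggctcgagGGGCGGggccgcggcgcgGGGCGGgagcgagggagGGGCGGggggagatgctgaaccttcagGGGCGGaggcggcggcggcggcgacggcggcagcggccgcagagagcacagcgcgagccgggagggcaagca
Cacnb2: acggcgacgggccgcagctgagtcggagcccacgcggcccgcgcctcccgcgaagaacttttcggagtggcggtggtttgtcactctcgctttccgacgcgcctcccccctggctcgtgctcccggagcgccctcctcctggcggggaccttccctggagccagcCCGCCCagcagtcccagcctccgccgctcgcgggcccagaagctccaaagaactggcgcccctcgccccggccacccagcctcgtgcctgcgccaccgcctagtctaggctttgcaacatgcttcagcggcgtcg
Cacnb3: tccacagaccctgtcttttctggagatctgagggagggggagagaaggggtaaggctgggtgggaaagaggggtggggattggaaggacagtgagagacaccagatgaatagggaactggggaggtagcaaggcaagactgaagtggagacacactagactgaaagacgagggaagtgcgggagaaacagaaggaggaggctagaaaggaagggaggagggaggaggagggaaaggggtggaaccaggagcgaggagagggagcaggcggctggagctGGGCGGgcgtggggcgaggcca
Cacnb4: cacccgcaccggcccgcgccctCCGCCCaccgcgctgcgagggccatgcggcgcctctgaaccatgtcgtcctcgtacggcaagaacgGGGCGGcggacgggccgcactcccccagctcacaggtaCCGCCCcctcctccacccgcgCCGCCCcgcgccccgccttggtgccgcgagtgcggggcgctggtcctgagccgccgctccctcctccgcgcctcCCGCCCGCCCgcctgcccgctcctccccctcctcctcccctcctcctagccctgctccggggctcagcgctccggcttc
The windows hold 5, 1, 1 and 6 matches in the order printed, and 35.7% of all promoters in the table hold at least one. Other RefSeq starts of the same genes, not printed, had 0 to 4 matches. Of the 34 channel genes, 25 had a promoter in the table, 35 windows in all. GGGCGG occurred in 15 of the 35 windows, TATAAA, the TATA box, in 2 (13.6% of all promoters) and TAATCC, a motif bound by the photoreceptor factor Crx, in 3 (7.06%).

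Channel partners were taken from a list of 44 genes, of which 41 were tested. They are the fibroblast growth factor homologous factors, anchors of the axon initial segment, HCN partners, NALCN and its partners, calcium channel gamma subunits, the retinal calcium channel genes Cacna1f and Cacna2d4, calcium-binding proteins, scaffolds of the release site, Stac proteins and small GTPases that bind calcium channels. Among the highest were the calmodulin genes Calm2 and Calm3, with means over all libraries of 928 and 689 TPM. Cacna1f, the pore subunit of the photoreceptor synapse, had 286 ± 12.5 TPM for wild type, 280.4 ± 6.28 for heterozygotes and 282 ± 22.4 for homozygotes (SD, n = 3), and Cacna2d4, its alpha2delta partner, had 323 ± 17.0 TPM for wild type, 319 ± 1.28 for heterozygotes and 303 ± 25.3 for homozygotes (SD, n = 3), so each was above every calcium alpha1 and alpha2delta gene in the group described here. In limma, 0 of the 41 partners were called in Cre/+, Cre/Cre, the knock-in genotypes against each other or the trend. At an unadjusted p under 0.05 there were 1 (Fgf12, higher), 8 (1 higher, 7 lower), 4 (all lower) and 9 (1 higher, 8 lower) in the same order, where 10.7%, 6.97%, 6.58% and 6.24% of all genes passed. Medians were 0.03, -0.06, -0.09 and, per allele, -0.03, against 0.00, -0.02, -0.03 and -0.01 over all genes. In Cre/Cre replicate 1, the library with high Rn45s, the listed partners summed to 5169 TPM, against 5892 to 6290 TPM elsewhere. Partner counts without that library are not given here.

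The 9 partners with an unadjusted p under 0.05 in the trend were Cabp2, Cabp4, Cachd1, Cacng3, Calm3, Fgf11, Rrad, Sptbn4 and Stac2. Cabp2, which encodes a calcium-binding protein of hair cells and retinal neurons, had 17.1, 23.5 and 22.8 TPM in wild-type retinas, 17.9, 18.2 and 16.1 in heterozygous and 13.01, 14.8 and 16.7 in homozygous ones. Its values in Cre/Cre were all below those in +/+, with a log2 difference of -0.48 (adjusted p = 0.542, limma). Rrad, a small GTPase that inhibits calcium channels, was low and had 1.57, 0.812 and 1.22 TPM in wild-type retinas, 1.43, 1.72 and 2.02 in heterozygous and 2.85, 2.47 and 2.29 in homozygous ones. All its Cre/Cre values exceeded those of the other genotypes, with a log2 difference of 0.70 (adjusted p = 0.543, limma). Fgf11, which binds the tail of sodium channels, had 87.7, 87.7 and 85.6 TPM in wild-type retinas, 77.6, 94.3 and 92.4 in heterozygous and 66.8, 65.9 and 88.5 in homozygous ones, and Cre/Cre replicate 3 overlapped +/+. Over the other 6, the log2 fold change in Cre/Cre lay between -0.29 (Cachd1) and -0.15 (Cabp4). Fgf12 and Fgf14, of the same family as Fgf11, were at -0.27 and -0.31 between Cre/Cre and Cre/+ (adjusted p = 0.700 and 0.740, limma).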

How the data were processed

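Poly(A) RNA libraries that keep strand were made by the authors. After trimming (Trimmomatic), HISAT2 placed the reads on mm10 and StringTie estimated gene levels. The versions of these tools and the strand setting of the quantification are not given in the sources used here. The deposited gene tables hold TPM, scaled by the authors so that each library has the same sum, FPKM as deposited before that scaling, and the deposited coverage, the mean number of reads over the bases of a gene. They hold no read counts, so limma was used in place of a count model. Depth was read from the ratio of coverage to FPKM.

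TPM were summed by gene name. Genes with a mean of at least 1 TPM over the 9 libraries were fitted in 1 limma model (limma 3.58.1, R 4.3.3) on log2(TPM + 1), with genotype as the only term and a trended, robust prior, and p-values were adjusted over all 15198 genes. The procedure was tested on simulated data. The members, the partner and marker lists and the tests were chosen with earlier results of these data known. Values in every library are given for the leading genes of each class (the first, and the next 2 if above 10 TPM), for members with an unadjusted p under 0.05 in a contrast or the trend, and for members whose libraries did not overlap with +/+ in both knock-in genotypes. Of the partners, those highest and those with an unadjusted p under 0.05 in the trend are named, and Cacna1f, Cacna2d4, Cacnb4, Fgf12, Fgf14, Scn4b and the muscle markers were named after their values were seen. The replicate numbers of the labels were checked for pairing. Libraries with the same number had correlations of their deviations from -0.12 to 0.13, with 1 of 9 over 0.1, so no pairing was used. Each library is 1 mouse, and with 3 per genotype the spread between mice set the precision, since counting error cannot be had from TPM.

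Transcripts, exons and coding sequences came from GENCODE M21 (GRCm38, the assembly of mm10), promoters from RefSeq, and gene positions from the tables. GC content was that of the longest coding transcript, known for 89.7% of the genes tested. Of 12 genes in the tables that overlap a channel gene, 11 lie on the opposite strand. Alternatives were a pseudocount of 0.1, no filter, the replicate block, only the genotypes compared, Xist as a covariate, FPKM, median-ratio scaling, no robust prior and each library left out. Coverage, only the 6 libraries with Xist above 10 TPM, and the GC correction (lowess span 0.3) were chosen after seeing the data. Figures were drawn with matplotlib 3.10.9. Some members, partners and sequences that these rules choose are not reported here, though they stay in the fits and counts.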

Additional observations from a re-analysis of the deposited data

How the results depend on the processing

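The count of called channel genes was 0 under all 20 alternatives of each contrast and all 19 of the trend, and so was that of the partners (limma). The smallest adjusted p of a channel gene lay between 0.144 and 0.881 in Cre/+, between 0.385 and 0.993 in Cre/Cre, between 0.296 and 0.987 between the knock-in genotypes, and between 0.442 and 1.00 for the trend. At an unadjusted p under 0.05 the counts ran from 1 to 6 in Cre/+, 1 to 6 in Cre/Cre, 0 to 7 between the knock-in genotypes and 1 to 5 for the trend. With the replicate number as a block, 0 channel genes were called in each comparison, and 2, 2, 4 and 2 had an unadjusted p under 0.05, in place of 3, 3, 5 and 3. Each library left out in turn, the median log2 fold change of the channel genes ran from -0.05 to 0.02 in Cre/+, from -0.15 to -0.03 in Cre/Cre, from -0.17 to -0.0026 between the knock-in genotypes and from -0.074 to -0.011 per allele for the trend. The last 3 ranges have their upper end without Cre/Cre replicate 1, where the median between the knock-in genotypes moved by more than the spread of such medians within genotypes, 0.08. There the trend median went from -0.053 to -0.011 per allele, also more than that spread scaled per allele. The GC correction, chosen after seeing the data, gave medians of 0.02, -0.05, -0.06 and -0.02. Of 2528 values of single channel genes under the alternatives, 2400 kept their direction and 0 passed the threshold, and all 277 kept it for the 14 gene and contrast pairs with an unadjusted p under 0.05. Those of Hcn3 in Cre/Cre and Scn2a between the knock-in genotypes shrank by over 1.5 times without Cre/Cre replicate 1. With only the libraries that have Xist above 10 TPM, Scn9a between the knock-in genotypes was -0.30 and Scn2a -0.09, with 1 Cre/Cre library that is assumed to vary like the others. Rbpms in Cre/Cre remained past the threshold, at -1.08 to -0.81. With 3 mice per genotype the standard error of a channel gene had a median of 0.10 on the log2 scale, and the widest intervals, of Scn4a and Scn9a, reached from -0.86 to 0.91 over the contrasts, so a count of 0 does not show that the genotypes were alike.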
